A study of Xenopus laevis with 5 samples.

Results

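The apelin receptor gene aplnr was followed across the 5 arrays of a study of zic1, a zinc-finger transcription factor, in ectodermal explants of the frog Xenopus laevis. Probe sets were chosen by the gene symbol in the platform annotation, as aplnr or as one of the genes for its ligands, apln and apela. This gave 2 probe sets among 15491, 1 for each of the paired gene copies that this allotetraploid frog carries: aplnr.S (gene 379537) and aplnr.L (gene 399306). Of apln and apela, 0 probe sets carried the symbol, so the ligands were not analysed here. Aplnr.S had been singled out because it stood high in the zic1 arrays. The zic1 and control levels of both copies are therefore given as a description, with no test.

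Of the 5 arrays, 2 measured explants injected with a hormone-inducible zic1, and 3 measured control explants injected with beta globin. RNA went in at the 2-cell stage, noggin was co-injected in both groups to turn the ectoderm neural, and explants were cut at stage 9. At an age equal to stage 12 both groups received the protein synthesis blocker cycloheximide for 30 min and then dexamethasone, the hormone that releases the zic1 protein, for 3 h. The question the design addresses is which transcripts change after zic1 activation without new protein. The zic1 explants thus carried injected zic1 RNA, while the controls carried beta globin RNA in its place; no arm without dexamethasone was analysed here. The arrays of a group are named as biological replicates, with no word on embryos or days, so p-values here reflect only how much these arrays vary, which may be technical.

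Each value is a probe set's ratio to its own median over the 5 arrays. A ratio of 1 is the middle array, and the absolute signal was not kept. Neither the detection of a transcript nor the presence of the markers of neural ectoderm could be read from such ratios, and the level of aplnr.S could not be set against that of aplnr.L. In bulk explants, more cells with a transcript and more transcript per cell cannot be told apart.

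The apelin receptor, also known in the frog as X-msr, is a heptahelical receptor that signals mainly through inhibitory G proteins. Its ligands are the secreted peptides apelin, from apln, and Elabela (Toddler), from apela. In frog embryos the receptor is known from mesoderm and from the precursors of blood vessels. In zebrafish it is needed for the movement of mesendoderm cells in gastrulation and for the formation of heart progenitors. By the protocol the explants are none of these tissues, but ectoderm given noggin to turn it neural.

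Aplnr.S read 5.56 and 4.90 in the zic1 arrays, against 0.670, 1.00 and 0.804 in the controls. Both zic1 arrays lay above every control, and the lower zic1 array was 4.90 times the highest control. The mean ratio was 5.23 ± 0.466 in zic1 explants (SD, n = 2) and 0.825 ± 0.166 in controls (SD, n = 3). On the log2 scale the means were 2.38 ± 0.13 in zic1 explants and -0.30 ± 0.29 in controls, a difference of 2.68, or 6.42-fold. The 6 possible pairs of a zic1 and a control array gave folds between 4.90 and 8.30. By the size of its log2 difference, aplnr.S was probe set 8 of the 15490 with complete values. It stood just below glipr2.S (2.72) and just above thop1.L (2.66) and the larger zic1.S probe set (2.56).

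Aplnr.L read 2.31 and 2.39 in the zic1 arrays, against 0.548, 0.809 and 1.00 in the controls. The groups did not overlap here either, and the lower zic1 array was 2.31 times the highest control. The mean ratio was 2.35 ± 0.0608 in zic1 explants (SD, n = 2) and 0.786 ± 0.227 in controls (SD, n = 3). The log2 difference was 1.62, or 3.08-fold, with pair folds from 2.31 to 4.37, and put aplnr.L at place 46. Most of the spread lay among the controls, whose highest array was 1.82 times the lowest for aplnr.L and 1.49 times for aplnr.S. In the zic1 group the same quotient was 1.04 for aplnr.L and 1.13 for aplnr.S. Control 1 was the lowest array for both copies. The log2 SD within groups was 0.36 for aplnr.L and 0.25 for aplnr.S, above the median of 0.13 over all probe sets.

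**Figure D1:**
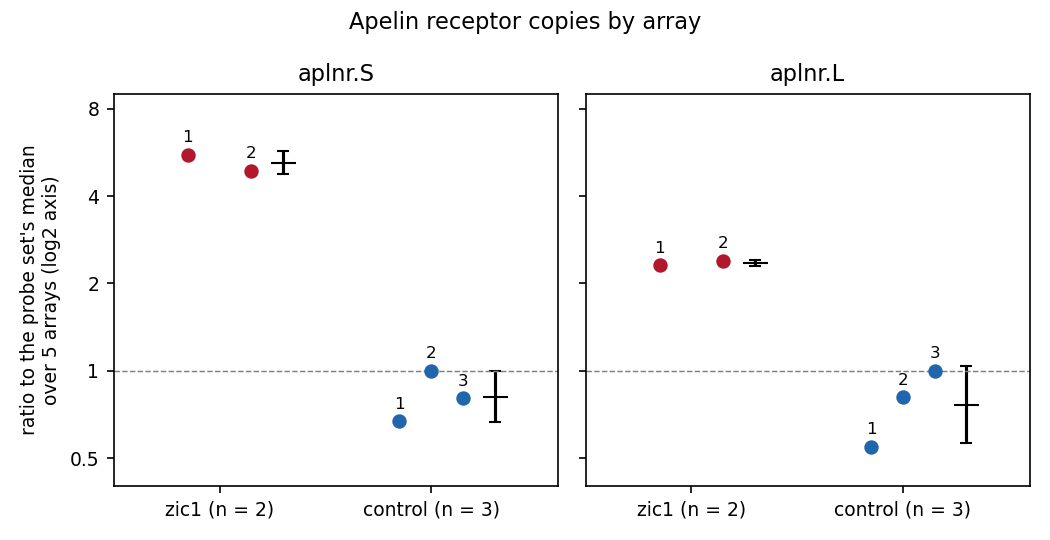
Ratio of each aplnr probe set to its own median over the 5 arrays, on a log2 axis, for zic1 (red) and control (blue) explants; numbers are replicate numbers, and the black bars give the mean ± SD of the log2 ratios. The zic1 arrays sit at 4.90 and 5.56 for aplnr.S and at 2.31 and 2.39 for aplnr.L, and every control sits at or below 1.00.

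Groups that do not overlap were common on these arrays. All zic1 values lay above all controls in 19.9% of probe sets, and the size of the gap was the rarer property. Only 1.27% of probe sets were both at least 2-fold higher and free of overlap, and both copies of aplnr were among them. Aplnr.S had been chosen for standing high in the zic1 arrays, so its place there is a description. Leaving out each array in turn gave log2 differences from 2.54 to 2.83 for aplnr.S and from 1.39 to 1.82 for aplnr.L. The place of aplnr.S among all probe sets then ran from 5 to 10. Cyclic loess of the ratios reduced the differences to 0.077 for aplnr.S and 0.86 for aplnr.L. The loess is fitted against each probe set's mean over arrays, a quantity that already contains the zic1 to control difference. Whether the drop came from this was not tested.

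Zic1 replicate 1, control 1 and control 2 shared more exactly equal ratios than other arrays did, a grouping that the labels do not state. Their 3 pairs had equal values in 788 to 944 probe sets, and the other 7 pairs of arrays in 35 to 73. Nearly all of these were shared ratios of 1; without them the 3 pairs had 8, 26 and 96 equal values and the others 7 to 31. Within those 3 arrays the log2 difference was 2.76 for aplnr.S and 1.79 for aplnr.L. Between the remaining arrays, zic1 replicate 2 and control 3, which equal values do not tie together, it was 2.61 for aplnr.S and 1.26 for aplnr.L.

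Aplnr.S differed between the groups by more than aplnr.L, by 1.06 on the log2 scale. The larger difference for aplnr.S was seen in 6 of 6 pairs of arrays, by 0.73 to 1.58. This gap was not tested, because aplnr.S had been chosen for its difference. Both probe set names carry the plain suffix _at, without the s or x by which Affymetrix marks probe sets whose probes match several transcripts. How much signal the copies share was not tested.

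Over the array, 748 genes had exactly 1 probe set for each of their .L and .S copies. In 21 of them at least 1 copy was 2-fold or more higher in zic1 explants. The median absolute gap between the copies was 0.97 on the log2 scale in those 21 genes and 0.19 over all 748. Picking genes for a high copy favours a large gap, and aplnr, with a gap of 1.06, is itself among the 21. Of all 748 genes, 2.27% had a gap at least as large as that of aplnr. In 5 of the 21 both copies were at least 2-fold higher, without overlap. Those 5, listed after their values were seen, were prickle1 (2.11 for .S and 2.06 for .L), a planar polarity gene, myod1 (2.86 and 1.67), aplnr (2.68 and 1.62), hesx1 (2.15 and 1.49), a forebrain homeobox gene, and celf3 (2.16 and 1.00), which binds RNA. In each of them the .S probe set had the larger difference, for prickle1 by only 0.055. Others of the 21 genes had the larger difference in the .L copy. Examples are gsta1 (0.13 for .S and 3.75 for .L) and vegt (0.85 and 2.49).

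**Figure D2:**
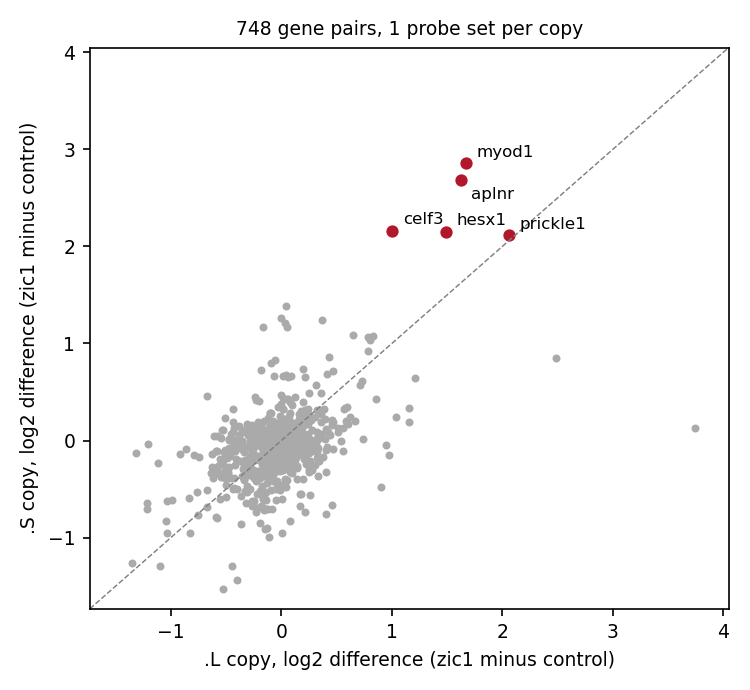
Log2 difference (zic1 minus control) of the .L copy on the horizontal axis and of the .S copy on the vertical axis, for the 748 genes with 1 probe set per copy; red points are the 5 genes with both copies at least 2-fold higher and no overlap. The point for aplnr lies at 1.62 and 2.68, next to myod1 and above the dashed line of equal differences.

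In the assembly Xenopus_laevis_v10.1, used here for gene order only, both copies lie between genes of the same names, znf219 and arhgef40 on one side and morc2 on the other. Of the 5 annotated genes on either side of each copy, only smtn.S, near aplnr.S, had a probe set under its identifier. It differed by 0.13 on the log2 scale and did not pass the test described next (adjusted p = 0.677, limma).

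Genes other than aplnr were tested with limma on the log2 ratios, with Benjamini-Hochberg adjustment over all 15490 probe sets and a threshold of 0.05. Past it, 1.41% of probe sets differed, 1.1% higher and 0.316% lower in zic1 explants. At an unadjusted p under 0.05 the share was 20.9%. As a check of the labels, 1 of the 2 zic1.S probe sets had ratios of 5.28 and 5.07 in zic1 arrays, against 1.00, 0.965 and 0.699 in controls. It rose by 2.56 ± 0.17 (SE; adjusted p = 0.0134, limma), though the difference was -0.23 after cyclic loess; the other rose by 0.93 ± 0.11 (adjusted p = 0.0376, limma). Of the Zic family and injected genes, 4 of 14 probe sets were called, all higher: those 2, zic5.S (1.70 ± 0.21, adjusted p = 0.0395, limma) and zic2.L (0.91 ± 0.12, adjusted p = 0.0432, limma). Where the zic1.S probe sets lie relative to the injected coding part is not given, so their values can hold injected or embryonic transcript. Noggin, received by both groups, differed by 0.12 for nog.L (adjusted p = 0.795, limma).

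The signalling partners of the receptor showed no call in either direction. Of 29 probe sets for G protein subunits, arrestins, phospholipases and RGS proteins, which switch G proteins off, 0 passed (limma). Over all probe sets 1.41% passed. At an unadjusted p under 0.05, against 20.9% of all probe sets, there were 4 of the 29 (limma). Their median log2 difference was -0.03, against -0.00021 over all probe sets, and the range ran from -0.60 to 0.55. Gnai3.S, a subunit of the inhibitory class that the receptor couples to, read 0.874 and 0.804 in zic1 arrays, against 1.03, 1.00 and 1.07 in controls. That is a difference of -0.30 ± 0.08 (adjusted p = 0.124, limma), without overlap of the groups. Gnai1.L (-0.13), gnai1.S (0.04) and gnai2.S (0.30), of the same class and named after their values were seen, did not share a direction. Gnaq.L, of another class of G protein, lay at 0.55 in 1 probe set and -0.07 in the other. Rgs4.S lay at -0.60 in 1 probe set and -0.01 in the other, and rgs10.S at 0.34. The only arrestin, arrb2.L, differed by -0.12.

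Peptidases that process or degrade the ligands were represented by 10 probe sets, of which 0 passed (limma), against 1.41% of all probe sets. At an unadjusted p under 0.05 there were also 0 (limma), against 20.9%. Furin, the protease that cuts the Elabela precursor, had 4 probe sets for furin.L, between -0.16 and 0.54, and furin.S lay at 0.01. Its relatives pcsk7.L (0.45) and pcsk5.L (0.28) did not pass. The list median was 0.16, above the -0.00021 of all probe sets.

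Among the listed other heptahelical receptors, mostly for peptides and lipids, 0 of 33 probe sets passed (limma), against 1.41% of all probe sets. These covered 26 genes, where 118 symbols were listed. The list also holds receptors for other ligands, such as p2ry4.L (-0.44), for nucleotides, and adora1.L (-0.09), for adenosine. At an unadjusted p under 0.05 there were 3 (limma), against 20.9%. The differences of the 33 ran from -0.44 to 0.71 with a median of 0.02. Against the 2.68 and 1.62 of the aplnr copies, the highest of them was lpar6.L, a receptor for lysophosphatidic acid. It read 1.23 and 1.26 in zic1 arrays, against 1.00, 0.848 and 0.518 in controls, a difference of 0.71 ± 0.29 (adjusted p = 0.244, limma), and its other probe set lay at 0.46. The angiotensin receptor agtr1, the relative after which aplnr was once named, lay at -0.10 for agtr1.L and 0.02 for agtr1.S. The chemokine receptor cxcr4, which guides migrating cells, was lower in both zic1 arrays than in any control for both copies, an order found in 19.4% of all probe sets. The differences were -0.43 ± 0.16 for cxcr4.L (adjusted p = 0.206, limma) and -0.39 ± 0.12 for cxcr4.S (adjusted p = 0.166, limma), and neither passed. F2rl1.S, a receptor that proteases activate, lay at -0.27.

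**Figure D3:**
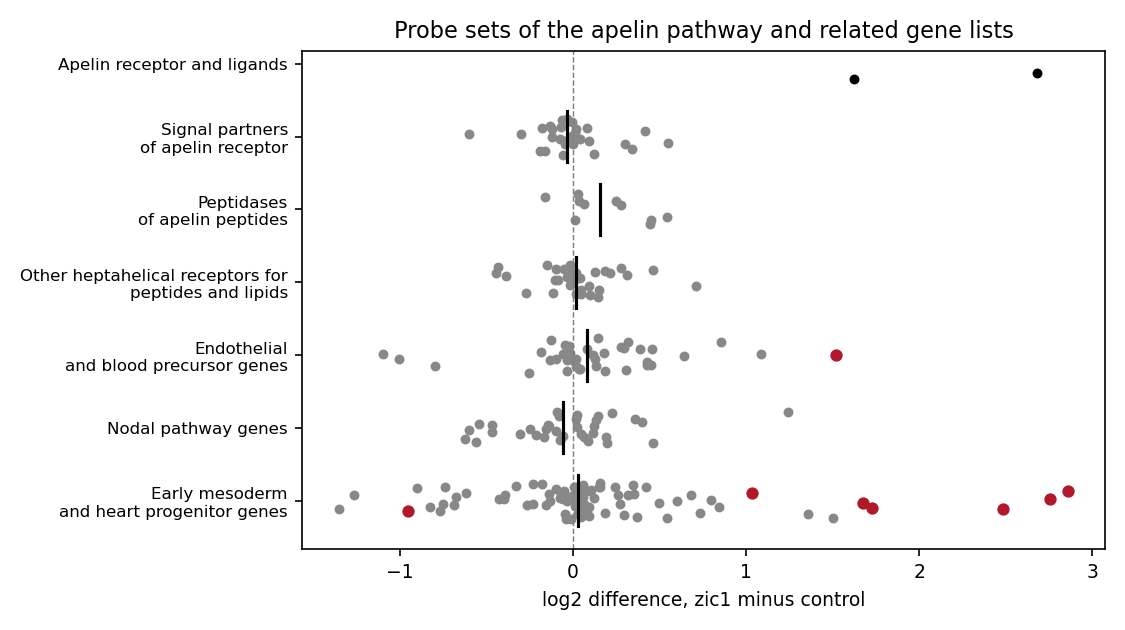
Log2 difference (zic1 minus control) of every probe set in 7 gene lists; red points passed an adjusted p of 0.05 (limma), black bars are list medians, and the 2 black points are aplnr.L and aplnr.S, for which no test is given. The aplnr copies lie at 1.62 and 2.68, beyond every signalling partner, peptidase and other receptor in these lists, the highest of which lies at 0.71. Aplnr.S was chosen for its difference, so its place beyond them is a description. The receptor list does not hold gprc5b.L, an orphan heptahelical receptor at 1.69.

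Genes of blood and vessel precursors, the lineage in which the receptor is known, held 1 call. Of 39 probe sets 1 was called higher and 0 lower (limma; 9 at an unadjusted p under 0.05, where the share over all probe sets was 20.9%). Without overlap, 11 were higher and 4 lower, against 19.9% and 19.4% of all probe sets. The median was 0.08, against -0.00021 over all probe sets, and the range ran from -1.10 to 1.52. The called share, 2.56% higher, stands beside 1.1% over the whole array and rests on 1 probe set. It was tek.S, a receptor tyrosine kinase for angiopoietins in endothelial cells. Tek.S read 2.56 and 2.27 in zic1 arrays, against 0.670, 0.886 and 1.00 in controls. It rose by 1.52 ± 0.19 (SE; adjusted p = 0.0395, limma), and its call was lost without zic1 replicate 1 (0.431), zic1 replicate 2 (0.237), control 1 (0.0705) or control 2 (0.143), and after quantile normalization (0.057), all adjusted p from limma.

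The other genes of that lineage that came nearest to a call pointed both ways. Cebpa.S, a factor of myeloid cells, lay at 1.09 ± 0.19 (adjusted p = 0.064, limma), and the ets1.L probe sets at 0.45 and 0.32. Gata3.S (-1.002) and klf2.S (-1.10 and -0.80) were lower in both zic1 arrays than in any control without passing. Of the regulators of the blood and endothelial programme, tal1.S lay at -0.03 and 0.12, lmo2.S at 0.01 and fli1.S at 0.02. A probe set of sox7.L (0.43) and one of sox18.L (0.43) were higher with overlap of the groups. Sox18.S (0.86) and the VEGF receptor flt1.L (0.46) did not overlap between the groups and did not pass. These genes, from tal1.S on, were named after their values were seen, and the ratios do not show whether their transcripts were present. The mean of the list over its probe sets was 0.087 and 0.098 (log2) in zic1 arrays, against -0.0073, -0.081 and 0.0074 in controls, and its part in the aplnr difference was not tested.

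Genes of the Nodal pathway, through which mesendoderm is induced and which the receptor is known to enhance in zebrafish, held 0 calls in 35 probe sets (limma). Over all probe sets 1.41% were called. At an unadjusted p under 0.05, against 20.9% of all probe sets, there were 10 of the 35 (limma). The median was -0.06. Inhbb.L, an activin subunit, read 1.79 and 1.91 in zic1 arrays, against 0.802, 0.596 and 1.00 in controls, a difference of 1.24 ± 0.22 (adjusted p = 0.0685, limma). Drap1.S, a repressor that restrains Nodal signals in mice, lay at -0.62 and acvr2b.S, an activin receptor, at 0.40 in 1 probe set and 0.02 in the other. The 35 include 5 probe sets of tmed2.L, a gene of vesicle transport rather than of this pathway proper. These 5 lay between -0.60 and -0.47 without passing.

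Early mesoderm and heart progenitor genes held the most calls of the pathway and tissue lists around the receptor, with 6 of 85 probe sets higher and 1 lower, 7.06% higher against 1.1% over all. The list was chosen with earlier results of these data known, so this share is a description. The median of the list was 0.03 and its range ran from -1.35 to 2.86. At an unadjusted p under 0.05 there were 29 of the 85 (limma), against 20.9% of all probe sets. Without overlap 26 were higher and 14 lower, against 19.9% and 19.4%. The 6 were myod1.S, myod1.L, snai1.S, vegt.L, wnt8a.L and foxf1.L. Foxf1.L, which encodes a forkhead factor of lateral plate mesoderm, read 2.91 and 3.62 in zic1 arrays, against 0.956, 0.983 and 1.00 in controls. It rose by 1.73 ± 0.11 (adjusted p = 0.0134, limma). After cyclic loess the differences of foxf1.L (-0.51), snai1.S (-0.19), wnt8a.L (-0.015) and myod1.S (-0.0058) were negative. Nkx2-3.S, a homeobox gene of heart and pharynx, fell by 0.95 ± 0.12 (adjusted p = 0.0406, limma). Other heart genes of the list with 1 probe set per copy, named after their values were seen, did not pass. Nkx2-3.L lay at -0.83. For .L and .S, gata4 lay at -0.75 and -0.77, gata5 at -0.23 and -0.33, and gata6 at -0.15 and -0.14. Mef2d lay at -0.07 and -0.05, hand2 at 0.18 and -0.03, and tbx1 at 0.06 and 0.09. Eomes.L (1.503), pdgfra.L (0.50 and 0.73), fgf8.L (0.80, 0.60 and 0.07) and szl.S (-1.27) did not pass. Without control 2, 0 of the 85 passed, where 5 probe sets passed over the whole array. Without control 1 it was 1 of the 85, where 21 passed over the whole array.

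Marker lists for other tissues that an explant can hold gave no call outside the neural plate. These lists were also chosen with earlier results of these data known. Over all probe sets 1.41% were called and 20.9% had an unadjusted p under 0.05 (limma). For lists this small, 0 calls lies near the called share. Muscle genes had 0 of 37 probe sets past the threshold (limma; 1 at an unadjusted p under 0.05), with array means of log2 ratios between -0.077 and 0.13. The muscle determination factor myod1, called higher in both copies, was counted in the early mesoderm list instead. Endoderm genes had 0 of 14 (limma), with 3 at an unadjusted p under 0.05. Their differences ran from -2.04 to 1.01. At least 2-fold and without overlap, 3 were lower and 1 higher, against 0.497% and 1.27% of all probe sets. The 3 lower were 2 probe sets of sox17b.1.S (-2.04 and -1.68) and 1 of sox17a.L (-1.22). The higher was cdx1.S (1.01). The list mean was -0.27 and -0.16 in zic1 arrays, against -0.072, -0.12 and 0.56 in controls, so control 3 stood apart. Without control 3, 2 of the 14 were called lower (limma), against 69 of all 15490 probe sets. Without that array the difference was 2.67 for aplnr.S and 1.82 for aplnr.L. Epidermal genes had 0 of 27 (limma; 3 unadjusted), with means of -0.33 and -0.0059 in zic1 arrays, against -0.16, 0.31 and 0.15 in controls. Neural plate genes had 3 of 50 higher and 0 lower, or 6% higher against 1.1% over all, with a median of 0.17. At an unadjusted p under 0.05 there were 18 of them (limma). Without overlap 21 were higher and 1 lower, against 19.9% and 19.4% of all probe sets. The 3 were 1 of 3 probe sets of sall1.L (1.93, but -0.45 after cyclic loess) and 2 of 3 of hes5.5.S (2.34 and 1.41). The part of these tissues in the aplnr values was not tested.

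The probe sets whose pattern was most like that of aplnr.S were found by the root mean square distance over the 5 arrays between log2 ratios, each taken relative to the probe set's mean. The median distance of all probe sets from aplnr.S was 1.33, and 24 lay within 0.5. The nearest was thop1.L, a metallopeptidase, at 0.10. It read 5.56 and 5.55 in zic1 arrays, against 0.800, 1.00 and 0.848 in controls. Glipr2.S followed at 0.13, with 5.25 and 5.96 in zic1 arrays, against 0.758, 1.00 and 0.810 in controls. In both, as in aplnr.S, control 1 was the lowest array and control 2 the highest control, a likeness that a search over the same arrays favours.

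Next came myod1.S (0.26), the muscle determination factor, anxa5.S (0.27), an annexin, zic1.S itself (0.27) and celf3.S (0.29). Snai1.S (0.30), a zinc-finger repressor of mesoderm and neural crest, hesx1.S (0.31), vegt.L (0.32), a T-box factor of mesoderm and endoderm, and cyp27c1.S (0.36), of the cytochrome P450 family, completed the 10. Of the 10, myod1.S, snai1.S and vegt.L, also belong to the early mesoderm list. For anxa5.S the other 5 probe sets differed by -0.68 to -0.03, so its symbol has no single direction. A small distance from aplnr.S goes with a like difference between the groups, and aplnr.S was chosen for that difference. The likeness is therefore a description. With each array left out in turn, 7 to 9 of the 10 were again among the nearest.

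**Figure D4:**
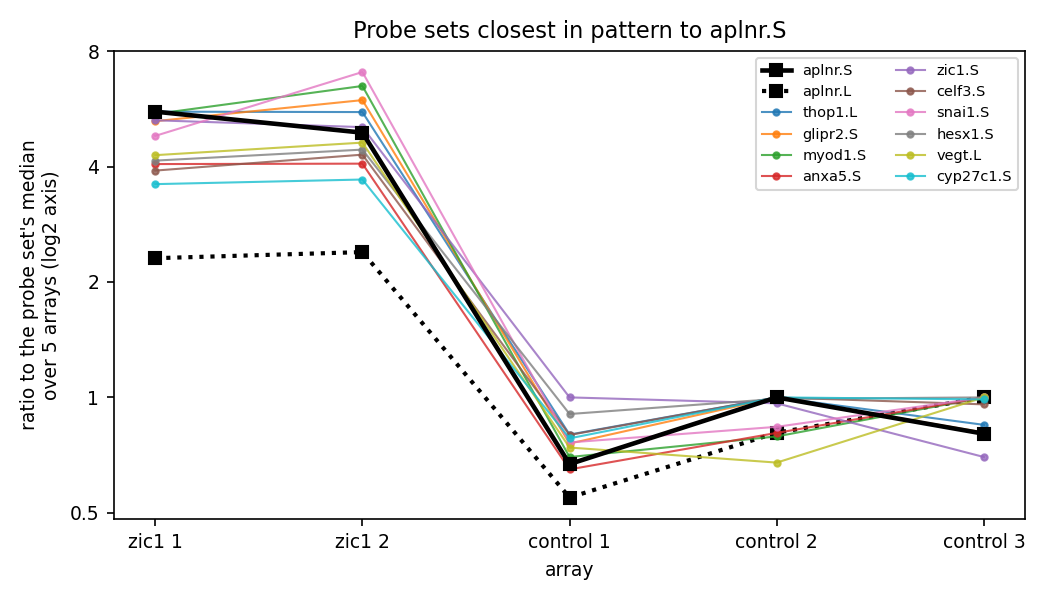
Ratio to the probe set's own median (log2 axis) on each of the 5 arrays for aplnr.S (black line), aplnr.L (dotted line) and the 10 named probe sets nearest to aplnr.S; lines join the values of 1 probe set and do not stand for an order of arrays. Thop1.L and glipr2.S run closest to aplnr.S, and aplnr.L lies lower in the zic1 arrays, at 2.31 and 2.39.

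Aplnr.L was at place 32 of the other 15489 probe sets by distance from aplnr.S (0.57). The same search around aplnr.L, added after its values were seen, gave tek.S as its nearest named probe set, at a distance of 0.13. The nearest after it were gprc5b.L (0.15), an orphan heptahelical receptor, and sesn1.L (0.20), a stress-responsive gene. Gprc5b.L, which the list of other receptors does not hold, differed by 1.69 on the log2 scale. In tek.S, as in aplnr.L, the controls ran in the same order, with control 1 lowest and control 3 highest. The search by distance over these arrays favours such a likeness. Around aplnr.L 286 probe sets lay within 0.5, so a short distance was less rare there than around aplnr.S.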

How the data were processed

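Expression was measured on Affymetrix Xenopus laevis arrays from 2 µg of total RNA per sample, per the labels' protocols. GCOS and RMA are named, per the submitters' processing notes, with no version or role. The deposited values are linear ratios: the median over the 5 arrays was exactly 1 in all 15571 probe sets with 5 values (tolerance 0), a centring found from the values. Signal over background is therefore unknown, and precision is limited by how few arrays there are. Of 15572 probe sets, 81 Affymetrix controls and 1 with missing values were left out, leaving 15490. The platform annotation gave 9304 probe sets 1 symbol, 195 several and 5992 none; 2 symbols were updated through the gene identifier. Log2 ratios were fitted with limma 3.58.1 in R 4.3.3 (lmFit, eBayes; 3 residual and 2.29 prior degrees of freedom), and the script was tested on simulated data. No pseudocount was used. Values are log2 differences, zic1 minus control, ± SE.

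The members and the 12 gene lists were chosen with earlier results of these data known. Named were list members past the threshold and the 10 nearest to aplnr.S. In the pathway and tissue lists of the receptor, up to 4 more were named by moderated t. The other marker lists are given by counts, save the endoderm probe sets that differed at least 2-fold without overlap. The aplnr probe sets were part of the fit and of its counts, and their p-values are not given. Symbols were compared without .L, .S, -a or -b. No set test was run. No sequences are printed. Plots were drawn with matplotlib 3.10.9.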

Additional observations from a re-analysis of the deposited data

How the results depend on the processing

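The deposited ratios carry no signal, so dim probe sets could not be filtered, and 5 arrays limit what any call can carry. The aplnr.S difference of 2.68 was nearly removed by cyclic loess (0.077). It became 2.30 after quantile normalization and 1.77 as log2(ratio + 1), and lay between 2.54 and 2.83 with single arrays left out, at 2.67 with the replicate block, 2.68 with array weights and 2.70 when the 2 array sets formed a block. The aplnr.L difference of 1.62 became 0.86 after cyclic loess and 0.92 as log2(ratio + 1), 1.39 to 1.82 with single arrays left out, and 1.35 to 1.82 otherwise, the last with the replicate block. Of the 10 probe sets nearest to aplnr.S, 7 to 9 were kept with an array left out and 10 without subtracting the mean.

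The count over the whole array (219, limma) became 109 after quantile normalization, 0 after cyclic loess (3331 at an unadjusted p under 0.05), 935 with array weights, 37 with blocking by array set, 1054 at the 0.10 threshold and 0 to 207 with single arrays left out, 0 without either zic1 array (1467 and 2483 unadjusted). Replicate numbers shared between the groups pair only 2 arrays of each, and nothing in the labels ties them. Deviations of same-numbered arrays correlated at 0.32 and 0.28. With only 2 zic1 arrays, their deviations from the group mean are exact opposites, so swapping the numbers gives -0.32 and -0.28. These values are not separate signs of pairing and cannot decide it. With that replicate block, which leaves 1 residual degree of freedom, 2692 passed, among them 2 signalling partners, 7 endothelial, 9 Nodal, 27 mesoderm, 5 endoderm, 5 epidermal and 16 neural plate probe sets. The cause of these changes was not tested.

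In the lists, quantile normalization left 0 endothelial calls, 5 in the mesoderm, 1 in the Zic family and 1 in the neural plate. Cyclic loess left 0 in the endothelial, mesoderm, Zic family and neural plate lists. Array weights gave 3 endothelial, 2 Nodal, 17 mesoderm, 6 Zic family, 3 endoderm and 7 neural plate calls, against 935 over the whole array. Blocking by array set gave 0 endothelial calls, 5 in the mesoderm, 1 in the Zic family and 1 in the neural plate. With log2(ratio + 1), 314 probe sets passed over the whole array. These included 2 endothelial, 1 Nodal, 10 mesoderm, 4 Zic family and 5 neural plate probe sets. At an adjusted p under 0.10 (limma), 1054 passed over the whole array. Among them were 4 endothelial, 3 Nodal, 18 mesoderm, 6 Zic family, 3 endoderm and 8 neural plate probe sets. With single arrays left out, calls ran from 0 to 1 for endothelial genes, 0 to 6 for mesoderm, 0 to 2 for the Zic family (4 with all arrays), 0 to 2 for endoderm and 0 to 2 for the neural plate.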
